A study of Rattus norvegicus with 23 samples.

Results

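Schwann cells are the glia of peripheral nerves, and the genes described here are 8 markers of these cells: Sox10, Foxd3, S100b, Pmp22, Mbp, Cdh19, Erbb3 and Ngfr. Their probes were found through the transcript accession that the array files give each probe and a RefSeq table of rat genes. Of the 8 genes, 7 had at least 1 probe named in this way, with 9 probes in all, and all 7 were among the 16084 genes tested. Foxd3 is named only, since no probe was matched to it. RNA from 6 tissues of male Wistar rats aged 8 to 11 weeks was hybridized to 23 single-color arrays, on which the brightness of a spot measures the labeled RNA bound by 1 probe. There were 4 arrays each of the left atrium next to the pulmonary vein (LA), left ventricle (LV), sinoauricular node (SA), pulmonary vein (PV) and pulmonary artery (PA), and 3 of the right ventricular free wall (RV). No rat was treated, 12 rats were used in all, each SA sample pooled the tissue of 2 rats, and each LV was cut into 3 pieces that served as samples, so LV arrays may share an animal. Arrays of different tissues may share animals too, which the labels do not give and the fit does not model. Fat and the soft tissue that carries the vagus nerve were trimmed off under a stereomicroscope before dissection.

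The vagus and sympathetic nerves reach the heart mainly over the great vessels and the atria, and small ganglia lie in the tissue around the atria and the roots of the pulmonary veins. Along these nerves Schwann cells either wrap single axons in myelin or hold bundles of thin axons without it. Sox10 is the transcription factor that keeps cells in the Schwann lineage and switches on myelin genes, and neuregulin from axons signals to them through the receptor Erbb3 and its partner Erbb2. Every tissue here was taken whole, so fewer Schwann cells and less RNA per cell cannot be told apart in these values.

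Values are log2(normalized signal + 1), with the highest probe of a gene taken on each array, and differences are log2 fold changes on that scale, which understate the change of dim genes. V stands for the ventricles and is the mean of LV and RV in the tests. A difference was called where the Benjamini-Hochberg adjusted p over all 16084 genes, from limma, was below 0.05. The labels number the arrays of a tissue but do not say that they came from different rats, so that p-values measure the spread between these arrays. A spot counts as well above background by a flag of the scanner software, which was set for 58.5% to 79.8% of an array's probes. It was set more often in array row 1, for 72.6% to 79.8% of probes, than in row 2, for 58.5% to 69.3%. Summed signals of marker lists followed the labels: atrial myocyte genes were highest in LA, SA and PV, ventricular myocyte genes in LV and RV, sinoatrial node genes in SA and smooth muscle genes in PA. PA array 1 stood apart, with a summed atrial myocyte signal of 35804 against 3173 to 4997 on the other PA arrays. Of the PA calls of the 7 genes, only that of Pmp22 between PA and PV was lost without this array, with an adjusted p of 0.0798.

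Across the 6 tissues, 6 of the 7 genes differed by the moderated F-test, where 64.4% of all genes passed. The gene that did not pass was Erbb3. PV carried the highest levels of most of the genes, PA combined the highest levels of Pmp22 with the lowest of Sox10, with Cdh19 not well above background on any PA array, and LV had the lowest means of S100b and Mbp. On all 4 PV arrays, Sox10, Mbp, Cdh19 and Ngfr were above every array of the other 5 tissues. For Sox10 the margin was slight: PV array 2 had a normalized signal of 1278.8 and RV array 2 one of 1276.4. How many of all genes lay so in PV was not counted. For Mbp, the place of PV above all others and the lowest mean in LV hold on the brighter of its 2 probes only. On the other probe, PV overlapped LA and SA, and PA had the lowest mean, 3.98. That probe was well above background on 1 of 4 PA arrays and 4 of 7 ventricular arrays, so the order of PA and the ventricles is not resolved.

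**Figure D1:**
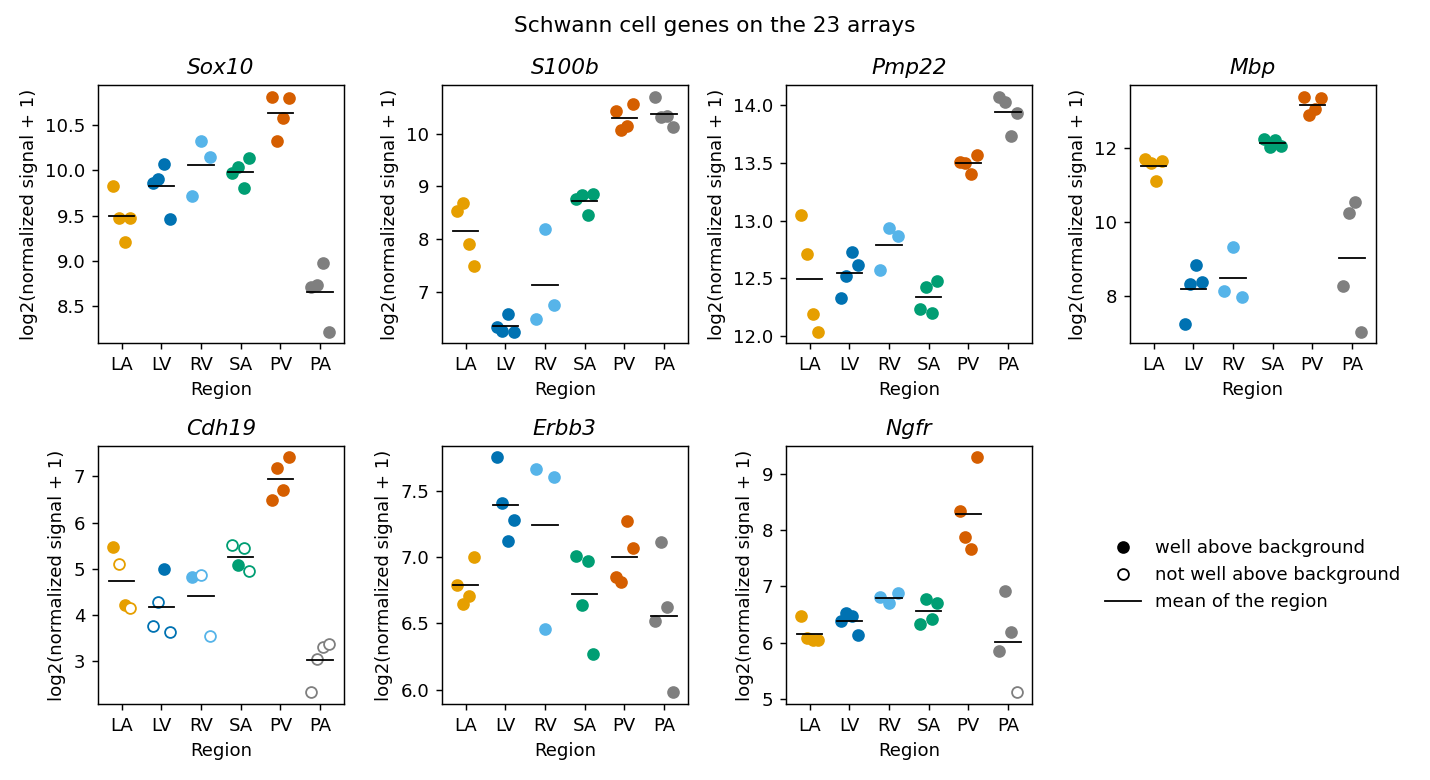
Level of each Schwann cell gene on each of the 23 arrays, as log2(normalized signal + 1), by tissue; filled points are well above background, open points are not, and bars are tissue means. PV points lie above all others for Mbp (brighter probe), Cdh19 and Ngfr, and for Sox10 except that PV array 2 and RV array 2 coincide at 10.32. PA points lie above all others for Pmp22 and below all others for Sox10, while the Cdh19 points of PA are all open.

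Sox10 was measured well above background on every array. In PV it read 10.81, 10.32, 10.58 and 10.80. In PA it read 8.71, 8.74, 8.98 and 8.22. The LA values were 9.83, 9.47, 9.21 and 9.47. These 3 tissues do not overlap for PV against LA or for LA against PA. In SA it read 9.97, 10.03, 9.80 and 10.13, in LV 9.86, 9.90, 10.07 and 9.46, and in RV 9.72, 10.32 and 10.14. RV array 2, at 10.32, matched PV array 2 to 2 decimals. SA, LV and RV overlap one another, so that the node and the working ventricle were not separated by this gene. Sox10 was 1.61-fold higher in PV than in V (log2 fold change 0.68 ± 0.16 SE, adjusted p = 0.00216) and 3.90-fold lower in PA than in PV (log2 fold change -1.96 ± 0.18, adjusted p = 1.17e-08). It was also lower in LA than in V (log2 fold change -0.45 ± 0.16), a call with an adjusted p of 0.0335 that was lost without LA array 3 (adjusted p = 0.137), without LA array 2 or 4, LV array 2 or 3, or RV array 2 or 3, with only the arrays compared, and with the replicate number as a block (adjusted p = 0.0597). Between PV and SA the difference of 0.64 ± 0.18 missed the threshold (adjusted p = 0.0513).

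S100b encodes a small calcium-binding protein that marks Schwann cells and is also made by fat cells. Its levels stepped down from the vessels over the node and the atrium to the ventricles. The PA arrays read 10.70, 10.32, 10.33 and 10.12. In PV the values were 10.42, 10.07, 10.14 and 10.57. These 8 arrays overlap and lie above all others. SA followed with 8.77, 8.84, 8.46 and 8.85, LA with 8.54, 8.68, 7.92 and 7.49, RV with 6.49, 8.19 and 6.75, and LV with 6.34, 6.27, 6.59 and 6.25. The ventricles were thus low except on RV array 2, which reached into the range of LA. Against V, S100b was 11.7-fold higher in PV (log2 fold change 3.54 ± 0.26, adjusted p = 3.15e-09) and 12.2-fold higher in PA (3.61 ± 0.26, adjusted p = 2.28e-10). It was also 3.93-fold higher in SA (1.97 ± 0.26, adjusted p = 8.48e-06) and 2.65-fold higher in LA (1.40 ± 0.26, adjusted p = 0.000262). PA and PV differed by 0.07 ± 0.29, with an adjusted p of 0.864.

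Pmp22 encodes a membrane protein of compact myelin that many other cells, fibroblasts among them, also make. In PA it read 14.07, 14.02, 13.73 and 13.93. The PV arrays followed with 13.51, 13.50, 13.40 and 13.57. PA lies above PV without overlap, and PV lies above the remaining 15 arrays. In those the values ran from 12.04 to 13.05 in LA, 12.33 to 12.73 in LV, 12.57 to 12.94 in RV and 12.20 to 12.48 in SA. RV and SA do not overlap, while the other pairs of these 4 tissues do. Pmp22 was 2.40-fold higher in PA than in V (log2 fold change 1.26 ± 0.15, adjusted p = 2.95e-07) and 1.77-fold higher in PV than in V (0.82 ± 0.15, adjusted p = 0.000215). The difference of 0.44 ± 0.17 between PA and PV was called with an adjusted p of 0.0316. That call was lost with the 75th percentile of the scanner signals (adjusted p = 0.0705) and when PA array 1, 2 or 4 or PV array 1, 2 or 3 was left out.

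Mbp encodes myelin basic protein, which packs the cytoplasmic faces of the myelin sheath together. In PV it read 13.39, 12.90, 13.05 and 13.36. SA followed with 12.25, 12.04, 12.22 and 12.06, and LA with 11.69, 11.60, 11.10 and 11.64. These 3 tissues do not overlap one another, and all of them lie above the ventricles and PA. The LV arrays read 7.24, 8.31, 8.83 and 8.37, and the RV arrays 8.13, 9.32 and 7.95. PA was split, at 8.25, 10.23, 10.53 and 7.02. Mbp was 28.8-fold higher in PV than in V (log2 fold change 4.85 ± 0.49, adjusted p = 2.40e-07), 14.1-fold higher in SA (3.82 ± 0.49, adjusted p = 6.22e-06) and 9.07-fold higher in LA (3.18 ± 0.49, adjusted p = 3.74e-05). Although the arrays of PV, SA and LA do not overlap, PV minus LA (1.67 ± 0.55, adjusted p = 0.0521) and PV minus SA (1.03 ± 0.55, adjusted p = 0.388) missed the threshold in the fit, in which all tissues, the split PA arrays included, share 1 estimate of the spread.

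Mbp and S100b each had a second probe. For Mbp it gave another order of the tissues, and for S100b smaller differences. The probes of Mbp are named through different transcripts of the gene, and the values above come from the probe with the higher mean. The second probe averaged 9.60 ± 0.20 (SD, n = 4) in LA, 9.30 ± 0.12 in SA and 9.55 ± 0.43 in PV, and these 3 tissues overlap. It averaged 4.88 ± 1.04 in LV and 4.67 ± 0.36 in RV (n = 3), where 4 of the 7 arrays were well above background, and ranged from 3.64 to 4.49 in PA, where 1 of 4 arrays was well above background. With this probe the fitted differences from V, which was thus near background in part, were 4.82 ± 0.31 in LA, 4.53 ± 0.31 in SA and 4.77 ± 0.31 in PV, and PV minus LA was -0.05 ± 0.35 (adjusted p = 0.955). On PA arrays 2 and 3, where the first probe read 10.23 and 10.53, the second was not well above background, so that the raised Mbp values of those arrays were seen on 1 probe only. The probes of S100b are named through the same transcript, and the second one also put PV and PA above the rest, at 8.58 to 9.22 and 8.65 to 9.39, with LV and RV at 5.79 to 7.25. Its differences were smaller, at 2.59 ± 0.20 for PV minus V and 2.58 ± 0.20 for PA minus V, against 3.54 and 3.61 with the higher probe of each array.

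**Figure D2:**
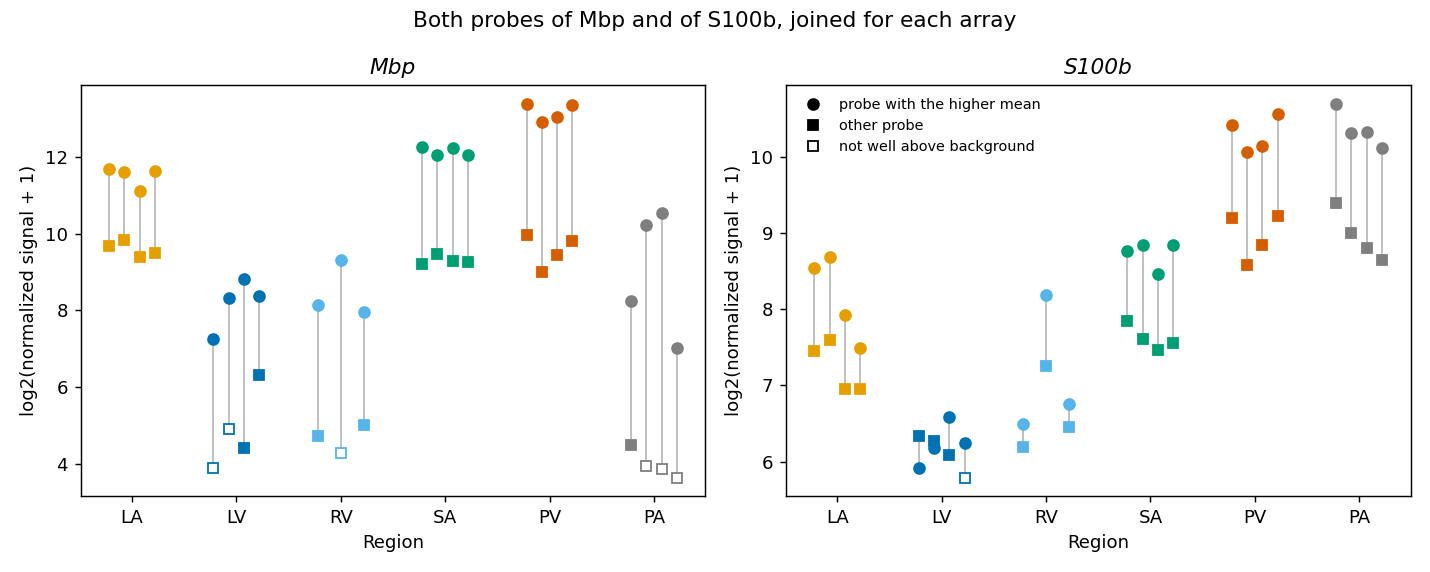
Levels on both probes of Mbp and of S100b, as log2(normalized signal + 1), with a line joining the probes of each array; open symbols are not well above background. The second Mbp probe puts LA, SA and PV at means of 9.60, 9.30 and 9.55 and PA at 3.64 to 4.49, while the first spreads PA from 7.02 to 10.53.

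Cdh19 encodes a cadherin, a cell adhesion protein that is typical of Schwann cells and their precursors. It was dim, and PV was the tissue in which it was well above background on every array, at 6.49, 7.19, 6.70 and 7.41. In SA it read 5.52, 5.08, 5.45 and 4.96, with 1 of 4 arrays well above background. The ranges were 4.15 to 5.47 in LA, with 2 of 4 arrays well above background, and 3.64 to 5.00 in LV and 3.55 to 4.86 in RV, with 2 of these 7 arrays so. These counts and the bounds for dim arrays also depend on array row. SA array 1, in row 2, read 5.52 without the flag, and LA array 3, in row 1, read 4.22 with it. In PA it was well above background on 0 of 4 arrays, so that no fold against the PA values themselves is given. Set against the lowest signal well above background on each PA array, Cdh19 was 4.43-fold higher in PV. That signal serves as a bound for dim arrays but is not a strict one. LA array 4 read 4.15 without the flag, where its lowest flagged signal was 4.13. The fitted difference between PA and PV had an adjusted p of 1.97e-08. The fitted difference was 2.66 ± 0.33 between PV and V (adjusted p = 3.11e-06) and 2.21 ± 0.37 between PV and LA (adjusted p = 0.000429), and since not all V and LA arrays were well above background, no fold is given. With arrays that were not well above background set to the lowest signal that was, PV minus V was 1.98 (adjusted p = 7.83e-05), the call between SA and V was lost (0.47, adjusted p = 0.347), and so were those of PA against V (-0.17, adjusted p = 0.747), LA (adjusted p = 0.994) and SA (-0.64, adjusted p = 0.163).

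Erbb3 is the receptor through which Schwann cells read neuregulin. It had the flattest profile of the 7 genes, and no tissue lay apart from the others. The LA arrays averaged 6.79 ± 0.15 (SD, n = 4), and the lowest read 6.65. The values were 7.75, 7.41, 7.12 and 7.28 in LV, and 7.66, 6.46 and 7.60 in RV. In SA they were 7.01, 6.64, 6.97 and 6.27, in PV 6.85, 6.81, 7.27 and 7.07, and in PA 6.52, 7.11, 6.62 and 5.98. The adjusted p over the 6 tissues was 0.0557. Of the 11 contrasts between tissues, 1 called Erbb3, with PA lower than V (log2 fold change -0.76 ± 0.23, adjusted p = 0.00708). PV minus V was -0.32 ± 0.23 (adjusted p = 0.302).

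Ngfr, the p75 neurotrophin receptor, is found on Schwann cells without myelin and on autonomic neurons. In PV it read 8.34, 7.89, 7.66 and 9.30. Elsewhere it ran from 6.04 to 6.47 in LA, 6.13 to 6.53 in LV, 6.71 to 6.88 in RV, 6.33 to 6.78 in SA and 5.11 to 6.92 in PA. The PV arrays thus stood alone, and the arrays of the other 5 tissues lay between 5.11 and 6.92. Ngfr was 3.26-fold higher in PV than in V (log2 fold change 1.71 ± 0.28, adjusted p = 8.70e-05), higher than in LA by 2.14 ± 0.32 on the log2 scale (adjusted p = 0.000144) and higher than in SA by 1.74 ± 0.32 (adjusted p = 0.00506). PV array 4, the highest for Ngfr, also had the highest summed signal of autonomic neuron markers, and PV array 3, the lowest of the PV arrays for Ngfr, the lowest such sum in PV. The highest adjusted p for PV against V with any array left out was 0.000446.

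For the veins as a whole, 6 of the 7 genes were higher in PV than in V and none was lower, where 15.6% of all genes were higher and 18.3% lower. The median difference of the 7 genes was 1.71, and that of all genes was -0.09. Against LA, the tissue next to it, PV was higher for 5 genes, Sox10, S100b, Pmp22, Cdh19 and Ngfr, and lower for none, where 6.99% of all genes were higher and 6.51% lower. Against SA it was higher for 4 genes, S100b, Pmp22, Cdh19 and Ngfr, and lower for none, where 2.71% of all genes were higher and 0.783% lower. The PV comparisons share the PV arrays.

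For the node, 3 genes, S100b, Mbp and Cdh19, were higher in SA than in V and none was lower, where 12.3% of all genes were higher and 15.8% lower. The median difference over the 7 genes was 0.04, against -0.06 for all genes. Sox10, the factor of the lineage, differed between SA and V by 0.04 ± 0.16 (adjusted p = 0.890). The call of Cdh19 (0.96 ± 0.33, adjusted p = 0.0339) was lost in 10 of the alternative analyses: with array row as a block (0.91, adjusted p = 0.0575), with only the arrays compared, with normexp and quantile normalization together, with dim arrays at their bound, and without LV array 1 or 4, RV array 3, or SA array 1, 2 or 3. LA likewise had S100b and Mbp above V and Sox10 below it, where 16.9% of all genes were higher and 18.4% lower. No gene was called between SA and LA by limma, where 7.03% of all genes were higher in SA and 8.26% lower, and 1 of the 7 had an unadjusted p below the threshold. That gene was Sox10, at 0.49 ± 0.18 higher in SA (adjusted p = 0.0738). With slide as a block it was called (0.58, adjusted p = 0.0178), and within the 3 slides SA minus LA was 0.79, 0.48 and 0.33.

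In the artery, calls of the 7 genes went both ways, and the share called higher was near or below that of all genes. PA was higher than V for 2 genes, S100b and Pmp22, and lower for 3, Sox10, Cdh19 and Erbb3, where 30% of all genes were higher and 28.4% lower. Against LA it was higher for S100b and Pmp22 and lower for Sox10, Mbp and Cdh19, where 27.2% of all genes were higher and 24.9% lower. The same 2 were higher and the same 3 lower against SA, where 29% of all genes were higher and 24.5% lower. Against PV, PA was higher for 1 gene, Pmp22, and lower for 4, Sox10, Mbp, Cdh19 and Ngfr, where 29.7% of all genes were higher and 23.7% lower. Mbp was 17.9-fold lower in PA than in PV (log2 fold change -4.16 ± 0.55, adjusted p = 2.19e-06), and 11.3-fold lower without PA array 4. On its second probe the difference was -5.57 ± 0.35, with 1 of 4 PA arrays well above background. Leaving out PA array 4 also took Mbp from -2.50 to -1.84 between PA and LA and from -3.13 to -2.47 between PA and SA, and all 3 calls stood. Ngfr was lower in PA than in PV as well (-2.28 ± 0.32, adjusted p = 3.92e-06). With arrays not well above background raised to their bound, the Cdh19 calls of PA against V, LA and SA were lost (adjusted p = 0.747, 0.994 and 0.163).

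Between the ventricles no gene was called by limma, where 0.298% of all genes were higher in LV and 0.224% lower. Of the 7 genes, 1 had an unadjusted p below the threshold. It was S100b, lower in LV (log2 fold change -0.78 ± 0.32, adjusted p = 0.350), and RV array 2 was the array that set RV apart.

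**Figure D3:**
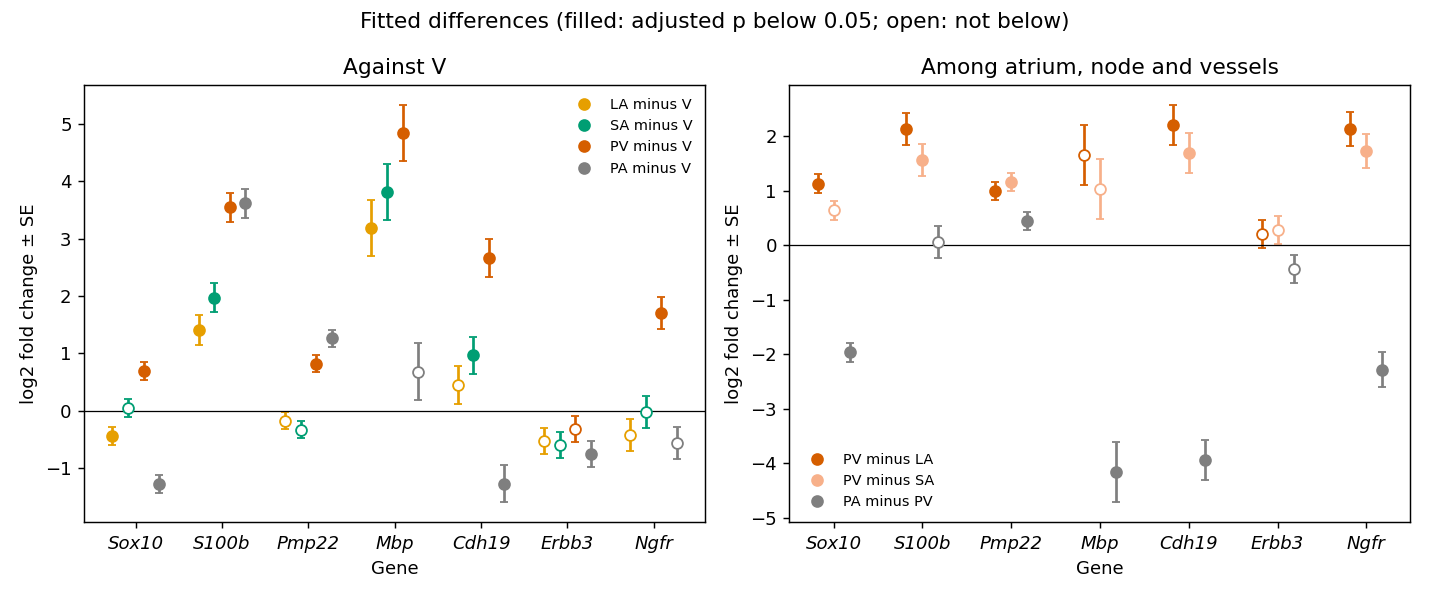
Fitted log2 fold changes with standard errors for each gene, against V in the left panel and among LA, SA, PV and PA in the right panel; filled points have an adjusted p below 0.05. PV is above V for 6 genes, while PA is above V for S100b and Pmp22 and below V for Sox10, Cdh19 and Erbb3.

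The other genes of myelin were counted from a list of which 17 were tested. Against V, 7 of the 17 were higher in PV and 1 was lower, against LA 8 were higher and 1 lower, and against SA 6 were higher and none lower. Over all genes, 15.6% were higher and 18.3% lower against V, 6.99% and 6.51% against LA, and 2.71% and 0.783% against SA. Ugt8, the enzyme that makes the myelin lipid galactosylceramide, was higher in PV than in V by 2.77 (adjusted p = 9.80e-06), with 1 of 7 ventricular arrays well above background. Pllp, plasmolipin, went the other way and was lower in PV than in V (log2 fold change -2.17, adjusted p = 7.75e-07). In SA, 2 of the 17 were higher than in V and 1 was lower, shares of the list no higher than those of all genes, 12.3% and 15.8%. In PA, 3 were higher and 4 lower than in PV, again no more than the 29.7% and 23.7% of all genes. The median over the list for PV against V was 0.23, against -0.09 for all genes.

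Of 15 other Schwann cell genes tested, 9 were higher in PV than in V and 2 were lower, where 15.6% of all genes were higher and 18.3% lower. Gap43, a growth protein of axons and of Schwann cells without myelin, was higher by 2.24 (adjusted p = 2.49e-08), Lgi4, a secreted protein needed for myelination, by 2.09 (adjusted p = 7.75e-07) and Sox2, a factor of immature Schwann cells, by 1.96 (adjusted p = 0.000132). In SA, 4 were higher than in V and 2 lower, where 12.3% and 15.8% of all genes were. Among them were Lgi4 (1.19, adjusted p = 0.000584) and Gap43 (1.06, adjusted p = 0.000267), both higher. The Gap43 arrays of SA, at 8.06 ± 0.05 (SD, n = 4), lay above all ventricular arrays, which ran from 6.45 to 7.83. In PA, 2 were higher than in PV and 8 lower, where 29.7% and 23.7% of all genes were. L1cam, an adhesion protein of axons and Schwann cells, was lower in PA (log2 fold change -2.79, adjusted p = 6.69e-10), and so was Sox2 (-3.60, adjusted p = 9.30e-08, with 3 of 4 PA arrays well above background), while Ncam1 was higher in PA by 3.25 (adjusted p = 3.66e-12). Art3 made up 83.6% to 93.0% of the summed signal of this list in the heart tissues and veins and 4.0% to 11.3% in PA, so that the sum says little about the other genes.

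Of 8 genes of the neuregulin pathway tested, 2 were higher in PV than in V and 1 was lower, where 15.6% of all genes were higher and 18.3% lower. Of the same 8, 3 were lower in PV than in LA, where 6.51% of all genes were, and none was called between PV and SA, where 2.71% of all genes were higher and 0.783% lower. Nrg1, the ligand, was higher in LA than in V by 2.61 (adjusted p = 8.85e-07), and its 4 LA arrays, from 8.22 to 8.62, lay above all others. Erbb2, the partner of Erbb3 that is also made by heart muscle, was higher than in V by 1.51 in LA (adjusted p = 6.62e-11), 1.13 in SA (adjusted p = 4.23e-09) and 1.05 in PV (adjusted p = 9.84e-09). Of the 9 neurotrophin genes, 4 were higher in PV than in V and 2 lower. Ntrk3, the receptor of neurotrophin 3, was higher in PA than in V by 5.92 (adjusted p = 2.92e-15).

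Markers of other cells moved with these genes. Of 17 autonomic neuron genes, 9 were higher in PV than in V and none was lower, where 15.6% of all genes were higher and 18.3% lower, and 10 were higher than in LA, where 6.99% of all genes were. Uchl1, a neuronal ubiquitin hydrolase, was higher in PV than in V by 4.78 (adjusted p = 3.30e-09), and Npy, neuropeptide Y of sympathetic neurons, by 4.91 (adjusted p = 2.49e-07). The summed signal of the list was 21035, 20368, 10565 and 37660 on the PV arrays, 10236 to 14255 in SA, 8831 to 11878 in LV, 5198 to 7184 in RV, 6719 to 7578 in LA and 5253 to 9547 in PA, with none of the 17 genes dim on every PV array. These sums rest largely on Ddc, an enzyme of dopamine synthesis, which made up 56.5% to 79.5% of them in LA, LV, RV and SA, 13.1% to 61.6% in PV and 3.5% to 5.1% in PA. The mean z-score of the list, in which each gene counts alike, was -0.021 on PV array 3 and 0.96 to 1.95 on the other PV arrays, against -0.43 to -0.11 in SA. Uchl1 ran from 9.81 to 12.86 in PV and from 8.51 to 8.95 in SA. The part of neurons in the Schwann cell values was not tested. In PA, 4 of the 17 were higher and 3 lower than in V, where 30% and 28.4% of all genes were, with Stmn2, a protein of growing axons, higher by 4.92 (adjusted p = 1.40e-08), where 4 of 7 V arrays were well above background, and Npy by 4.28 (adjusted p = 2.69e-07). Against PV, none was higher in PA and 9 were lower, where 29.7% and 23.7% of all genes were, and 2 of the 17 were not well above background on any PA array.

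S100b and Pmp22, the genes that were high in PA, moved with markers of smooth muscle and of fat, and not with those of endothelium. Pmp22 also moved with markers of fibroblasts. All 5 smooth muscle genes were higher in PA than in V, where 30% of all genes were higher and 28.4% lower, and the summed signal was 469490 to 556104 in PA, 48805 to 68363 in PV, 41772 to 54722 in SA and 25429 to 32101 in LA, LV and RV. Of 5 fat cell genes, 4 were higher in PA than in V and 1 was lower, and 4 were higher in PV than in V, where 15.6% of all genes were. The summed fat cell signal was 9864 to 17860 in PA, 14248 to 21039 in PV and 16789 to 28998 in LV, but Fabp4, a fatty acid carrier that capillary endothelium makes as well, was 98.9% to 99.8% of it in LV and 18.5% to 41.4% in PA. The mean z-score of the list was 0.48 to 0.73 in PA and 0.005 to 0.89 in PV, against -0.95 to -0.35 in LV and -0.61 to -0.10 in LA. In SA, where S100b was also above V, 3 of the 5 fat cell genes were higher than in V and 1 was lower, where 12.3% and 15.8% of all genes were, and the mean z-score was 0.05 to 0.39. Of 5 endothelium genes, none was higher and 4 were lower in PA than in V, with summed signals of 26380 to 50836 in PA and 66461 to 81739 in LV and RV. Of 5 fibroblast genes, 2 were higher and 2 lower in PA than in V, where 30% and 28.4% of all genes were. Their summed signal was 210940.5 to 248081.3 in PA, 135954.4 to 185849.5 in PV and from 61408.3 in LA to 134672.5 in SA over the other tissues. Col1a1 made up 64.3% to 74.3% of it in PA. With the mean z-score of this list, Pmp22 had a correlation of 0.58 over the arrays and S100b one of 0.20. The part of these cells in the S100b and Pmp22 values was not tested.

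Mbp was high in the tissues with atrial muscle. The summed atrial myocyte signal was 1050251 to 1373305 in LA, SA and PV together, 235987 to 346089 in LV and RV and 3173 to 35804 in PA. The order was not the same outside these tissues: on the brighter Mbp probe PA averaged 9.01 and the 7 ventricular arrays 8.31. The part of atrial muscle or of other cells in the Mbp values was not tested. Of 5 genes of oligodendrocytes, the brain cells that also make Mbp, none was called between PV and V, where 15.6% of all genes were higher and 18.3% lower. Their summed signal was 986 to 1450 in PV and 1364 to 2260 in LV. Melanocyte genes, for which Sox10 is also needed, had summed signals of 31.1 to 280.0 over all tissues, and none of the 3 was called between PV and V, a list too short to read against those shares. Mlana, a melanosome protein, was called higher in SA than in V and than in LA, and the highest sums, 280.0 and 225.8, were those of SA arrays 3 and 4.

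**Figure D4:**
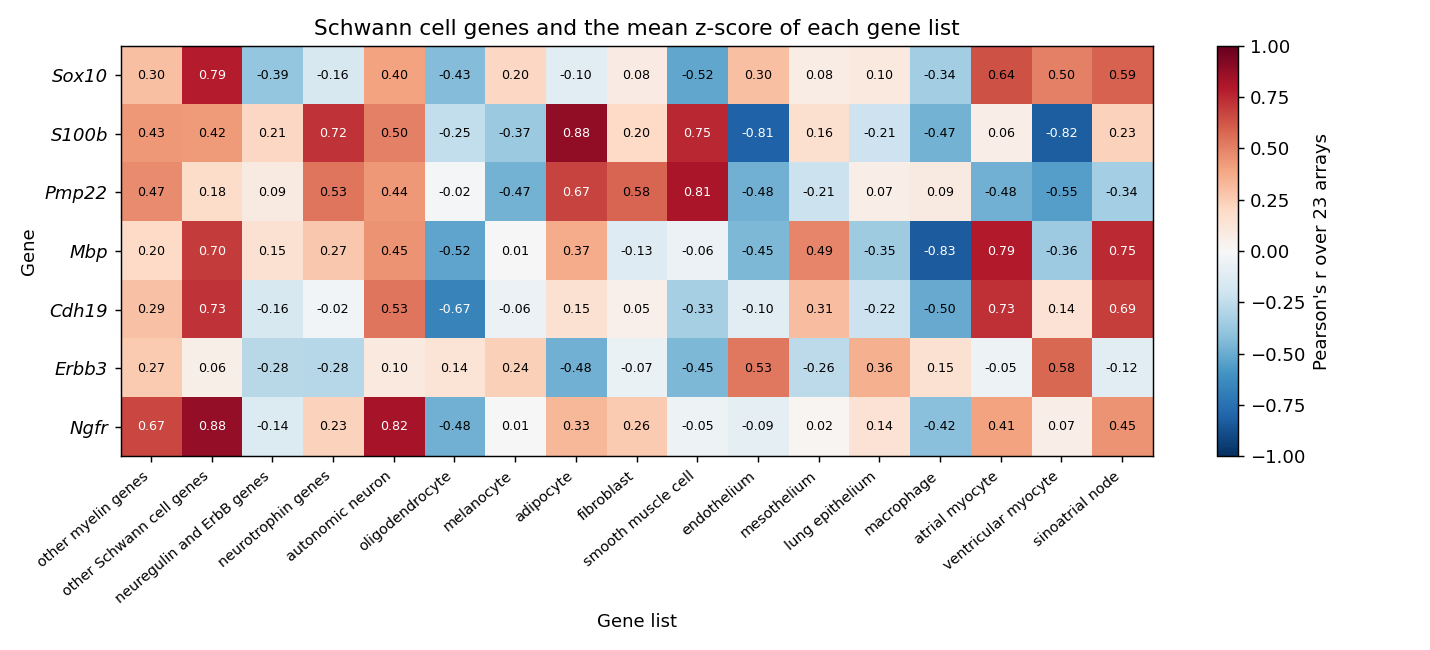
Pearson's correlation over the 23 arrays between each Schwann cell gene and the mean z-score of each marker list. Ngfr has its highest values with other Schwann cell genes (0.88) and autonomic neuron genes (0.82), S100b with fat cell genes (0.88), Pmp22 with smooth muscle genes (0.81) and Mbp with atrial myocyte genes (0.79).

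Over the 23 arrays, which share their tissues and slides, the 7 genes did not rise and fall as 1 group. Of 21 pairs, 8 had a Pearson correlation above 0.5. The highest were Sox10 with Cdh19 at 0.81, Sox10 with Ngfr at 0.78 and Cdh19 with Ngfr and with Mbp, both at 0.76. S100b with Pmp22 followed at 0.75, and both were near or below 0 with Sox10, at -0.09 and -0.25. With each tissue's mean taken off, these last 2 values became 0.58 and 0.42, and 17 of the 21 pairs were positive. Sox10 with Cdh19 then fell to 0.19, and Cdh19 with Ngfr and with Mbp to 0.15 and 0.29. Sox10 with Ngfr was 0.58 and S100b with Pmp22 0.67. Erbb3 and S100b stayed opposed, at -0.59 over arrays and -0.56 with tissue means taken off.

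Among the 5 other genes whose pattern was most like the mean z-score of the 7 over the 23 arrays were Apod at 0.96, Pex5l at 0.94 and Mmd2 at 0.92. Apod, which encodes apolipoprotein D, averaged 9.49 in PV and 6.40 to 6.91 in the other 5 tissues. With tissue means taken off, the 5 most alike included Gpr37l1 at 0.86, Sox2 at 0.83, L1cam at 0.83 and Sostdc1 at 0.81. Sox2 and L1cam were on the lists counted above.

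On the rat genome build GRCr8, Sox10 lies at chr7:112605721-112615097, Erbb3 at chr7:1579079-1600379, Pmp22 at chr10:48294932-48324941, Ngfr at chr10:81012077-81030305, Cdh19 at chr13:28450361-28561932, Mbp at chr18:78130652-78241174, S100b at chr20:12372345-12381159 and Foxd3 at chr5:119450532-119452898. Over the 23 arrays S100b and Pmp22 moved together, and Cdh19 went with Sox10, the latter only at 0.19 with tissue means taken off. The 250 bases before the annotated RefSeq starts of S100b, Pmp22 and Cdh19 are therefore shown, 5′ to 3′ on the strand of the gene. They were searched on both strands for the core letters that SOX factors bind, ACAAAG and ACAATG, which do not overlap each other. The windows are chr20:12381082-12381331 on the minus strand for S100b, chr10:48294682-48294931 on the plus strand for Pmp22 and chr13:28533754-28534003 on the minus strand for Cdh19. The Cdh19 window lies inside that gene's span, and the S100b window runs into its own. No letters are in capitals, because neither motif was found in these 3 windows.
S100b: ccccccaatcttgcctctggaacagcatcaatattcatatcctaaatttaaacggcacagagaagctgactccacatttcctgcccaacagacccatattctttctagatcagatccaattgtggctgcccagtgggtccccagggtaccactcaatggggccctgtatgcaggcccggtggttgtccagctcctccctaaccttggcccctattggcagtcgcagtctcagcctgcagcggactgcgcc
Pmp22: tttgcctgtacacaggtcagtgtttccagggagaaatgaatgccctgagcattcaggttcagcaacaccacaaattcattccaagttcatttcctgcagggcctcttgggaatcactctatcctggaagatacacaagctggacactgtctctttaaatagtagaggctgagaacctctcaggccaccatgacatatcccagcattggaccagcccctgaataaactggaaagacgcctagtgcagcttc
Cdh19: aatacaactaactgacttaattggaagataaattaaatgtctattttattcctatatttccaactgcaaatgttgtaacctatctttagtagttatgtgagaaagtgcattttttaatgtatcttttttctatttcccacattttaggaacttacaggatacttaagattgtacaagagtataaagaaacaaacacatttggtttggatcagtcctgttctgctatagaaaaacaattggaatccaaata
Of 33469 RefSeq windows of this length, 25.3% hold either motif, 16.3% the first and 11.1% the second. The Cdh19 window has 28.4% G and C, against 54.8% for S100b and 48.0% for Pmp22. Of the 2 RefSeq windows of Mbp, not printed here, 1 held 3 matches to the motifs and the other 0, and the Foxd3 window held 0.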

How the data were processed

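RNA of 6 tissues was measured on 23 Agilent SurePrint G3 Rat GE arrays. Arrays were grouped by the tissue in their labels. Per the file headers, Agilent Feature Extraction 11.0.1.1 subtracted the background from each spot's intensity and removed its spatial trend. The authors' deposited normalized intensities are these signals multiplied by 1 factor per array, which sets the 90th percentile of all arrays equal, and they served for all results. They lie on a linear scale. The scanner intensities, also deposited, gave the flags for spots well above background and the alternatives. The lowest such signal was 12.6 to 41.3 before scaling, and no spot was saturated.

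Of 45596 probes, 156 with a missing value were removed. Probes were named through their accession with the rat gene list of RefSeq (GRCr8), which named 21102 probes of 16575 genes. Each gene took its highest probe on each array, in place of the Ensembl mapping of the methods, and values became log2(value + 1). Genes above 4 on at least 1 array were tested, 16084 in all. limma (version 3.58.1, in R 4.3.3, with version 1.17.8 of the package data.table) fitted 6 tissues on all 23 arrays, with a moderated F-test, 11 contrasts and Benjamini-Hochberg adjustment. With 3 or 4 arrays a group, the F-test was preferred to the analysis of variance of the methods. The fit was tested on simulated data. Descriptions and plots used pandas 2.3.3 and matplotlib 3.10.9 in Python 3.11.15.

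All genes of the list are named. Genes of other lists are named by the largest called changes, up to 3 in each direction, where the higher group's arrays were all well above background. Some of them are not reported here. The genes, lists and rules were chosen with earlier results of these data known. The lists were other myelin, other Schwann cell, neuregulin and ErbB, neurotrophin, autonomic neuron, oligodendrocyte, melanocyte, adipocyte, fibroblast, smooth muscle cell, endothelium, mesothelium, lung epithelium, macrophage, atrial myocyte, ventricular myocyte and sinoatrial node genes.

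Alternatives were the scanner signals at their 90th or 75th percentile, quantile normalization, normexp with an offset of 50 together with quantile normalization, a pseudocount of 16, no filter, only genes well above background, the probe with the highest mean, a trend in the prior variance, only the arrays compared, the replicate number, slide or array row as a block, the methods' analysis of variance and each array left out. The second probes and the bound for dim arrays were chosen after seeing the data. Replicate numbers did not pair the arrays: the deviations of arrays with the same number had correlations of -0.38 to 0.34, and 12 of 55 were above 0.1. Of pairs on the same slide, 38 of 71 were above 0.1, against 26 of 149 on different slides, and of pairs in the same array row 50 of 107, against 14 of 113 in different rows.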

Additional observations from a re-analysis of the deposited data

Results flagged for a closer look

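Of 42 groups of arrays checked for 1 array far from the rest, 3 held one, and chance flags about 1 in 20 groups. S100b in the ventricles was highest on RV array 2, at 8.19, and the gap to the next array was 0.741 of the range of the 7 arrays. The same array had the highest Mbp value of the ventricles, 9.32, their lowest Erbb3 value, 6.46, and their highest summed macrophage signal, 4412. Mbp in LA was lowest on array 3, at 11.10, with a gap of 0.856 of the range. Ngfr in LA was highest on array 1, at 6.47, with a gap of 0.91 of the range.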

How the results depend on the processing

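The genes gave 41 called differences, and over 15 alternatives and 23 arrays left out in turn, none of the 1531 recomputed values reversed. In 31 of them a call was lost, which touched 8 of the 41 differences: Sox10 between LA and V, Cdh19 between SA and V, PA and V, PA and LA, PV and SA, and PA and SA, Ngfr between PV and SA with only the arrays compared (adjusted p = 0.0799), and Pmp22 between PA and PV. Cdh19 between PV and SA was lost without PV array 4 (adjusted p = 0.0719). Between SA and LA, where no gene was called, 1 was called with normexp and quantile normalization together (Sox10, adjusted p = 0.0454), with slide as a block (Sox10, adjusted p = 0.0178), with only the arrays compared (Mbp, adjusted p = 0.0297) and without LA array 1 (Sox10, adjusted p = 0.0417), so that leaving out arrays gave counts of 0 to 1. Counts rose in some alternatives of other contrasts too, as from 5 to 6 for PV against LA and from 4 to 5 for PV against SA. The cause was not tested.

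With the replicate number as a block, the count for LA against V went from 3 to 2, without Sox10, and the counts of the other contrasts and of the F-test stayed as they were. Over the 6 tissues, 6 or 7 genes passed in every alternative, the methods' analysis of variance included, which gave 6. Within each of 2 array rows and 3 slides, all 41 differences kept their sign, though slide 1 held no RV array. The number of arrays limits precision, and values near 4, as for Cdh19 outside PV, lie close to background.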
